A study of Homo sapiens with 24 samples.

Results

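The genes described here encode the proteins of the cytosolic ribosome. They were chosen by name alone, as every gene whose symbol is RPL or RPS followed by a number and at most 1 final letter A, X or L, together with RPLP0, RPLP1, RPLP2 and RPSA. The rule took 81 of the 58735 genes counted, 49 of the large subunit and 32 of the small subunit. RNA-seq counts were available from 24 libraries of OE33 and SK-GT-4, established cell lines of human esophageal adenocarcinoma. In each line a Cas9 control, which the labels call cGAS WT and which carried an empty vector, was set beside a cGAS KO made with CRISPR-Cas9. Control and KO cells of both lines were given DMSO or the MPS1 kinase inhibitor reversine (MPS1i) at 500 nM for 48 h. Each of the 8 groups held 3 libraries, 1 from each of the batches 1, 2 and 3 that the labels name. All groups carried Cas9, and both the Cas9 controls and the KO cells were clones, so that loss of cGAS and the history of the clones cannot be told apart. MPS1 enforces the mitotic spindle checkpoint, and its inhibition makes chromosomes missegregate. cGAS is the sensor that detects DNA in the cytosol.

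Ribosomal protein genes are transcribed at high rates in dividing cells. The majority of the proteins are assembled with ribosomal RNA in equal copy number, largely in the nucleolus. Most of their messengers begin with a 5′ terminal oligopyrimidine (TOP) tract, a C followed by an unbroken run of C and T, through which mTORC1 and the LARP1 protein set their translation together with that of several translation factors. Most of these genes also have many processed pseudogenes, near copies that can take reads from them.

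The first bases of the messengers are shown because the TOP tract is what the family shares apart from its name. Start sites were taken from RefSeq promoters of the GRCh38.p14 assembly, which held 64 of the 81 genes. The start equalled that of the MANE Select transcript for 62 of them. A tract, defined as C at the first base followed by at least 4 bases that are C or T, was present in 46 of the 64 genes (71.9%). The same letters stood at the start of 3.92% of 27241 other genes and of 4.08% of all genes with a start in the table. The run of pyrimidines from the start was a median of 7 bases in the family and reached 19 bases in RPL39. Some of the genes that the results turn on are printed as 15 bases before the start and 15 bases from it, 5′ to 3′ along the gene's strand, with the tract in capitals. RPL7, RPL8, RPL23 and RPL30, which are named below, had no start in the table and are not printed. The first group holds the tract:
RPL26 (chr17:8383179-8383208, minus strand): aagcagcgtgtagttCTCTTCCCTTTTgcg
RPS27 (chr1:153990747-153990776, plus strand): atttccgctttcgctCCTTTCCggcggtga
RPL35A (chr3:197950175-197950204, plus strand): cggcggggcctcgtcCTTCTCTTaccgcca
RPS18 (chr6:33272060-33272089, plus strand): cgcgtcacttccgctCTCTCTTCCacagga
RPS12 (chr6:132814554-132814583, plus strand): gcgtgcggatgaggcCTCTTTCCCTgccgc
RPS24 (chr10:78033848-78033877, plus strand): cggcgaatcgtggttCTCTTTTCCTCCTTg
RPL10 (chrX:154398362-154398391, plus strand): caggcggaggagcgcCTCTTTCCCTTCggt
RPL39 (chrX:119791616-119791645, minus strand): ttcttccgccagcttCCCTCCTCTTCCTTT

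The second group, in lower case throughout, did not meet the definition at the start that the table gives:
RPS28 (chr19:8321481-8321510, plus strand): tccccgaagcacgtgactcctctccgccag
RPL15 (chr3:23917117-23917146, plus strand): cccaaaaggcattgtgggagtacagctctt
RPL32 (chr3:12841551-12841580, minus strand): gggttacgacccatcagcccttgcgcgcca
RPL19 (chr17:39200268-39200297, plus strand): tgggctctccccttcgcagataatgggagg
RPL17 (chr18:49492451-49492480, minus strand): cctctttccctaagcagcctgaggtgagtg
RPS27L (chr15:63157463-63157492, minus strand): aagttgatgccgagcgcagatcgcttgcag

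RPL19 holds a run of pyrimidines directly before its listed start rather than at it, and RPL17 holds one a few bases farther before. In RPS28 such a run follows the first base, which is A. The start that these cells used was not measured, so the second group is a statement about the table's start sites only.

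Library totals ran from 15561268 to 25284177 counts, and no pair of libraries held identical values. CGAS, the targeted gene, lay between 28.89 and 41.58 CPM (counts scaled to a common library size) in the 6 OE33 Cas9 libraries and between 14.66 and 26.11 CPM in the 6 SK-GT-4 Cas9 libraries. In the KO libraries it lay between 2.309 and 2.821 CPM in OE33 and between 2.222 and 6.088 CPM in SK-GT-4, with the exception of the OE33 library labelled cGAS KO DMSO replicate 2, at 15.6 CPM. The counts, medians and calls that rest on that library are also given without it where that moved them. Comparisons whose groups exclude it can also move when it is left out, through the fit that all OE33 libraries share. The summed level of 6 epithelial markers ran from 17100 to 23700 CPM in OE33, from 3680 to 8640 CPM in SK-GT-4 Cas9 and from 9090 to 19400 CPM in SK-GT-4 cGAS KO. CDH1, which encodes E-cadherin, was at 3.83 to 13.8 CPM in SK-GT-4 Cas9 and at 21.4 to 224 CPM in SK-GT-4 cGAS KO. The summed levels of 6 fibroblast and 6 blood cell markers stayed at or below 82 and 34.5 CPM. The defining markers DCN and CD3E were each at 0 in 22 of the 24 libraries, whereas COL1A1, the main fibrillar collagen of fibroblasts, reached 71.57 CPM and CD14, a monocyte receptor, 34.49 CPM, and both were above 0 in all 24. Their part in the results was not tested.

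Ribosomal protein genes took between 4.99% and 20.6% of the counts of a library, with OE33 at a median of 8.23% and SK-GT-4 at 10.8%. Counting error was small beside this range, since the widest 95% Wilson interval of a share was 0.0181 percentage points to either side. In OE33 the shares in batches 1, 2 and 3 were 8.60%, 8.99% and 6.98% in Cas9 DMSO and 8.39%, 9.47% and 8.50% in Cas9 MPS1i. The OE33 KO shares were 8.73%, 7.77% and 5.10% with DMSO and 7.94%, 8.07% and 4.99% with MPS1i. Both OE33 KO libraries of batch 3 therefore lay below all other OE33 libraries. In SK-GT-4 the shares were 12.4%, 11.4% and 10.8% in Cas9 DMSO and 11.7%, 20.6% and 10.7% in Cas9 MPS1i. The SK-GT-4 KO shares were 19.9%, 6.41% and 8.82% with DMSO and 10.7%, 6.57% and 7.61% with MPS1i. The SK-GT-4 libraries Cas9 MPS1i replicate 2 and cGAS KO DMSO replicate 1 thus stood apart from all others, and they belong to different genotypes, treatments and batches. A share of bulk RNA cannot tell more ribosomal protein RNA per cell from less of other RNA.

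**Figure D1:**
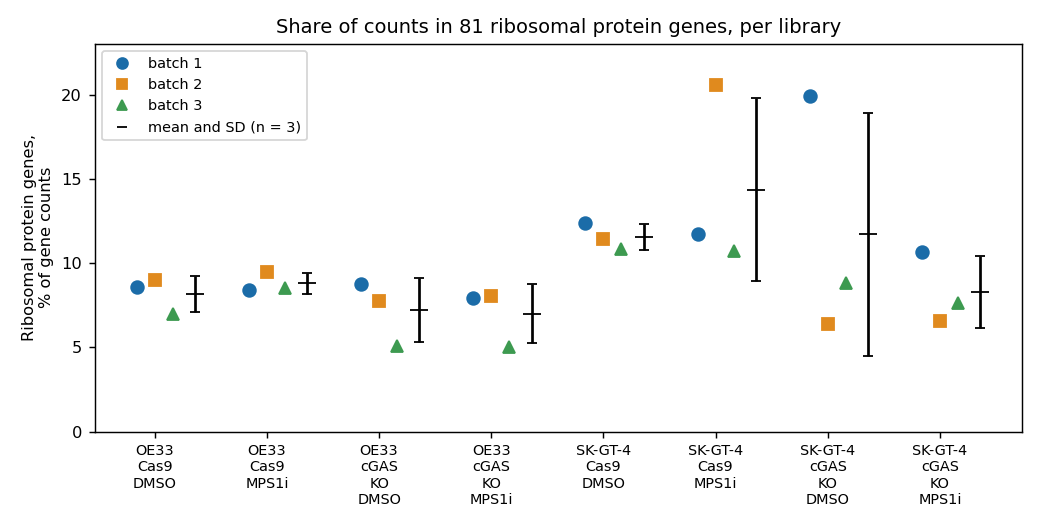
Share of gene counts (percent, y axis) taken by the 81 ribosomal protein genes in each library, for the 8 groups on the x axis. Points are single libraries marked by batch, and bars give the mean and SD of 3 libraries. SK-GT-4 Cas9 MPS1i replicate 2 (20.6%) and replicate 1 of cGAS KO DMSO in the same line (19.9%) lie far above the other 22 libraries.

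The 2 SK-GT-4 libraries that stood apart differed from the rest of their line by transcript length among other genes. Over 76 ribosomal protein genes with at least 10 counts in every library, the median log2 deviation from the cell line mean was 1.13 in Cas9 MPS1i replicate 2 and 1.30 in cGAS KO DMSO replicate 1, and 76 of 76 lay above 0 in both. Among these members, whose transcripts run from 295 to 7573 bases with a median of 878, the Spearman correlation of the deviation with length was -0.108 and -0.105 in the 2 libraries. Other protein-coding genes with a MANE Select transcript of up to 700 bases (187 genes) had medians of 1.02 and 1.48 in the same libraries. Genes over 4000 bases (4159 genes) had medians of -0.504 and -0.522. The same 2 libraries had the lowest ratios of large subunit to small subunit counts, 1.23 and 1.21, where the other 22 ranged from 1.44 to 1.65. On the low side, the ribosomal protein median was -0.851 and -0.73 in the SK-GT-4 KO libraries of batch 2 and -0.526 and -0.549 in the OE33 KO libraries of batch 3. Short genes were low there too, with medians of -0.627 and -0.564 in SK-GT-4, and in OE33 of -0.373 and -0.398. The part of RNA length in the results below was not tested, and the counts, medians and most named members of the SK-GT-4 and cell line comparisons are given with and without the 2 libraries that stood apart. Shares of counts, levels per length and numbers of members whose groups did not overlap include them.

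**Figure D2:**
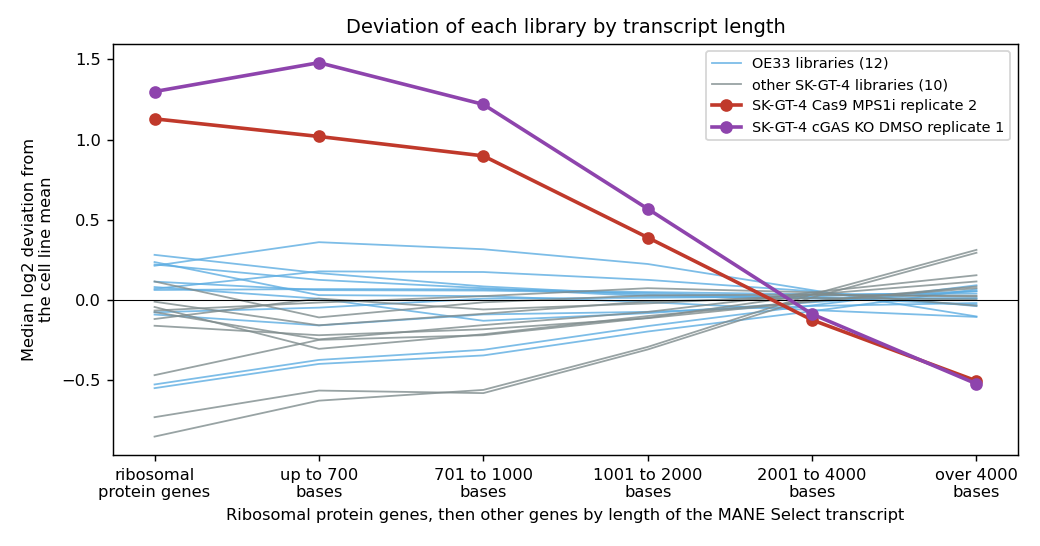
Median log2 deviation from the cell line mean (y axis) of the ribosomal protein genes and of other genes grouped by the length of their MANE Select transcript in bases (x axis). Each line is a library. The 2 SK-GT-4 libraries drawn with points lie above 1 for ribosomal protein genes and for genes of up to 700 bases, and near -0.5 for genes over 4000 bases.

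Levels per length, as CPM divided by the gene's length in kilobases (RPKM), were high for most of the family and near 0 for a few members. The median gene was at 263.3 RPKM, with quartiles of 119.8 and 464.7 RPKM, and 77 of 81 genes were above 1 RPKM in the median library. RPS2, a small subunit protein at the messenger entry channel, was highest at a median of 1955 RPKM, with 952.1 to 2702 RPKM in OE33 and 1162 to 5174 RPKM in SK-GT-4. RPL19 at 1863 RPKM, RPL8 at 1848 RPKM, RPS12 at 1440 RPKM and RPL41 at 1248 RPKM followed. Over libraries these 5 genes overlapped their neighbours in that order within each line, with RPL19 at 1928 to 3141 RPKM in OE33 and 710.3 to 1798 RPKM in SK-GT-4, so the order among them is not fixed. RPL19 was first by its median in OE33, at 2797 RPKM, but not in SK-GT-4, at 1076 RPKM. The stalk proteins RPLP0, RPLP1 and RPLP2, which recruit elongation factors, were at 847.1, 526.7 and 456.2 RPKM. RPL5 and RPL11, which carry 5S ribosomal RNA and bind MDM2 when assembly fails, were at 273 and 173.2 RPKM. RPS6, the classical substrate of S6 kinase, was at 556.5 RPKM. RPSA, which is also known as a laminin receptor, was at 455.4 RPKM, and RPS27A, made as a fusion with ubiquitin, at 353.3 RPKM.

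The lowest genes were the paralogs restricted to other tissues and a few genes whose reads can be assigned elsewhere. RPL10L, the testis paralog of RPL10, had 4 counts in all 24 libraries together, and RPL3L, the muscle paralog of RPL3, had 59. Their partners RPL10 and RPL3 were at 394.1 and 298.9 RPKM. RPL36A (345 counts in all) and RPS10 (261 counts in all) were near 0 although each is a standard ribosomal protein. Both overlap a readthrough gene on the same strand, RPL36A-HNRNPH2 with 0 counts and RPS10-NUDT3 with 1. The pseudogene RPL36AP21 held 21 counts and RPS10P3 held 3908. The part of either in these low counts was not tested. RPS28 held 181852 counts against 194249 in its pseudogene RPS28P7, and RPL9 held 209616 against 315948 in RPL9P9. RPL26 held 15661 counts and RPL26P19 6582. RPL17 held 6956 counts and overlaps 4 genes on the same strand, of which the readthrough gene RPL17-C18orf32 held the most, at 5 counts. The levels of these genes are therefore uncertain. In all, 42 of the 81 genes overlap another gene on the same strand and 61 overlap one on either strand, and the counts of 1132 ribosomal protein pseudogenes, which are not part of the family's, came to 3.724% to 4.663% of them.

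Both cell lines gave nearly the same order of levels, with a Spearman correlation of 0.884 across the genes, which share libraries and the length column and are not independent. Dividing by the MANE Select length instead of the length column, an alternative chosen after seeing the data, raised the median level to 1008 RPKM, and the orders under both lengths had a Spearman correlation of 0.838.

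**Figure D3:**
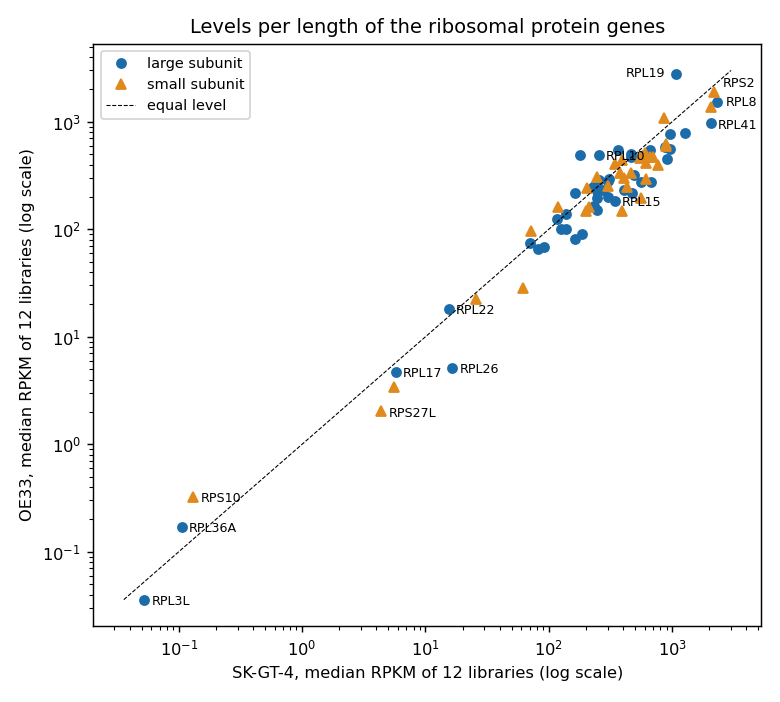
Median RPKM of each ribosomal protein gene over 12 libraries in SK-GT-4 (x axis) and OE33 (y axis), both on log scales, by subunit. RPL10L and RPL39L, with a median of 0 in at least 1 line, are not drawn. RPL19 and RPL10 lie above the line of equal level, and RPL26 and RPS27L lie below it.

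No ribosomal protein gene was called for MPS1i in OE33 Cas9 cells, where a call needed an adjusted p no larger than 0.01, as throughout (quasi-likelihood F-test of edgeR, Benjamini-Hochberg adjustment over 20426 genes, 0 of 80 members tested). Among all genes 0.0049% were called. With so few calls among all genes, the absence of called members does not show that the family was unchanged by MPS1i. At an unadjusted p under 0.05, 4 members were higher (5%) where 3.52% of all genes were, and 0 were lower where 3.43% of all genes were. The 4 were RPL26, RPS27, RPS29 and RPL39. The median member differed by 0.0939 on the log2 scale, with 71 of 80 above 0, against 0.00512 over all genes. Batch medians were -0.0392, 0.0709 and 0.299, so that the first batch had the other sign. Groups did not overlap for 9 members, all higher with MPS1i, and 5.6% of all genes were wholly higher.

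RPL26, a large subunit protein near the exit tunnel, had the smallest p. It measured 14.95, 10.97 and 10.44 CPM in OE33 Cas9 DMSO and 31.7, 19.27 and 18.25 CPM in Cas9 MPS1i, so that the groups did not overlap. The difference was 0.88 log2 (SE 0.165, adjusted p = 0.163), with 1.08, 0.807 and 0.8 in the 3 batches. Without the OE33 library whose CGAS level went against its label it was 0.89 (SE 0.153, adjusted p = 0.0192). That library is in neither of these groups, so this change came through the shared fit alone. RPL26 was called with no filter on low counts (adjusted p = 0.000148), with DESeq2 (adjusted p = 0.000766) and with 2 further settings named in the closing section. Its pseudogene RPL26P19 differed by -0.0186 (adjusted p = 1). In OE33 KO cells RPL26 measured 11.91, 11.03 and 9.586 CPM with DMSO and 16.47, 13.97 and 8.7 CPM with MPS1i, a difference of 0.22 (adjusted p = 0.815). These groups overlapped.

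The other OE33 Cas9 differences were smaller. RPS27 was at 503.4, 527.8 and 359.2 CPM with DMSO and at 713.7, 595.1 and 500 CPM with MPS1i, a log2 difference of 0.36 (SE 0.134, adjusted p = 0.611) with groups that overlapped. RPL39 was at 511.8, 548.6 and 369.6 CPM with DMSO and at 612.8, 604.6 and 582.1 CPM with MPS1i, a difference of 0.33 (SE 0.145, adjusted p = 0.692) with groups that did not.

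MPS1i called no member in OE33 cGAS KO cells, by edgeR (0 of 80, where 0% of all genes were called) or by DESeq2 (0). At an unadjusted p under 0.05 no member was counted either, where 6.95% of all genes were (3.82% higher and 3.13% lower). The median member differed by -0.0257, with 29 of 80 above 0 and batch medians of -0.176, 0.146 and -0.00527. Without the DMSO library whose CGAS level went against its label it was -0.0897 with 4 of 80 above 0, again with 0 called (0% of all genes). The difference between the MPS1i effects of Cas9 and KO cells, tested as an interaction, also called 0 members and 0% of all genes. Its median was 0.139 with 76 of 80 above 0, but the batch medians were 0.124, -0.0635 and 0.314, and without that library the median was 0.199 with 77 of 80 above 0. RPL26 alone had an unadjusted p under 0.05 (log2 difference of 0.66, adjusted p = 1), where 1.88% of all genes did (1.04% on the higher side).

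In SK-GT-4 the MPS1i results turned on the 2 libraries that stood apart. No member was called in Cas9 cells (0 of 79, 0% of all 22782 genes tested) or in KO cells (0 of 79, 0% of all genes), and none had an unadjusted p under 0.05, where 2.48% of all genes did in Cas9 cells (2.01% higher and 0.474% lower) and 1.39% in KO cells. The medians were nevertheless 0.505 in Cas9 cells, with 77 of 79 above 0, and -0.705 in KO cells, with 0 of 79 above 0. Batch medians were -0.124, 1.25 and -0.0777 in Cas9 cells and -1.38, 0.0546 and -0.345 in KO cells, so that in each case the batch with the library that stood apart lay farthest from 0. Without both libraries the medians were -0.227 (3 of 79 above 0) and -0.0768, with 0 members called in either genotype where 0.103% and 0.018% of all genes were. DESeq2 called 0 members in either genotype as well. The interaction had a median of 1.17, with 79 of 79 above 0, 0 members called (0% of all genes) and 1 at an unadjusted p under 0.05 (RPL28, where 2.41% of all genes were, with 0.536% on the lower side). Without the 2 libraries its median was -0.154 with 7 of 79 above 0, again with 0 called (0.0225% of all genes).

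The difference between the MPS1i effects of OE33 and SK-GT-4 Cas9 cells called 0 of 80 members and 0% of all genes, and 0 members had an unadjusted p under 0.05 where 1.58% of all genes did. Its median was -0.31 with batch medians of 0.102, -1.12 and 0.387, and it was 0.202 without the 2 SK-GT-4 libraries.

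In OE33 the ribosomal protein genes lay lower in the cGAS KO than in the Cas9 control, with calls under MPS1i. With DMSO, 0 of 80 members were called where 1.47% of all genes were, and 22 members (27.5%) were lower at an unadjusted p under 0.05 where 8.2% of all genes were. The median was -0.226, with 68 of 80 below 0, against -0.00973 over all genes. With MPS1i, 6 members were called lower (7.5%, where 0.955% of all genes were called lower) and 0 were called higher, where 2.84% of all genes were called higher or lower. At an unadjusted p under 0.05, 48 members (60%) were lower where 9.95% of all genes were, and 21.3% of all genes were higher or lower. The median was -0.365 with 73 of 80 below 0, and 31 members were wholly lower in the KO libraries, where 8.62% of all genes were. The comparisons with DMSO and with MPS1i share no library, but both rest on the same clones and the same batches.

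These differences were uneven over batches. The medians in batches 1, 2 and 3 were 0.138, -0.277 and -0.468 with DMSO and -0.0427, -0.24 and -0.797 with MPS1i, so that batch 1 had the other sign with DMSO and batch 3 had the largest difference under both treatments. Without OE33 cGAS KO DMSO replicate 2, the library whose CGAS level went against its label, 15 members were called lower with MPS1i (18.8%, where 2.78% of all genes were) and 1 with DMSO, RPS28 (-0.86, adjusted p = 0.00264, where 1.86% of all genes were called lower). That library belongs to neither group of the MPS1i comparison, so the rise to 15 members came through the shared fit alone. The median with MPS1i was then -0.382. With MPS1i, 0 members were called without the batch term or without the libraries of batch 1 or of batch 3, and 2 without those of batch 2. DESeq2 called 17 members with MPS1i and 1 with DMSO. The shares of all genes called by DESeq2, without the batch term or without whole batches are not given here. Those counts therefore cannot be read as particular to the family.

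The 6 members called lower with MPS1i belong to both subunits. RPS28, a small subunit protein near the messenger exit site, was at 336, 355.6 and 377 CPM in Cas9 MPS1i and at 177.9, 230.9 and 136.5 CPM in KO MPS1i, so that every KO library lay below every Cas9 library. It fell by 1.03 log2 (SE 0.189, adjusted p = 0.00342), and its pseudogene RPS28P7 differed by -0.566 (adjusted p = 0.0644). With DMSO, RPS28 was at 303.8, 348.1 and 325.1 CPM in Cas9 and at 205.8, 338.6 and 144.1 CPM in KO, where replicate 2 is the library whose CGAS level went against its label.

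RPL26 fell by 0.84 (SE 0.164, adjusted p = 0.00515) between the Cas9 MPS1i and KO MPS1i values already given, which did not overlap. The same Cas9 MPS1i libraries carried its difference from DMSO, and with DMSO its KO minus Cas9 difference was -0.18 (adjusted p = 0.658). RPL35A, a large subunit protein mutated in some patients with Diamond-Blackfan anemia, was at 544.7, 694.2 and 628.3 CPM in Cas9 MPS1i and 419.3, 434.3 and 280.8 CPM in KO MPS1i. It fell by 0.77 (SE 0.154, adjusted p = 0.00599).

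RPS27, a zinc finger protein of the small subunit, fell by 0.66 (SE 0.135, adjusted p = 0.00653) from the Cas9 MPS1i values above to 478, 442.9 and 265.1 CPM. RPL7, a large subunit protein, was at 935.2, 1180 and 937.3 CPM in Cas9 MPS1i and at 718.1, 806.5 and 411.6 CPM in KO MPS1i, and fell by 0.73 (SE 0.153, adjusted p = 0.00794). RPS18, which sits at the head of the small subunit, was at 2195, 2561 and 3055 CPM in Cas9 MPS1i and at 1634, 1692 and 1384 CPM in KO MPS1i, and fell by 0.76 (SE 0.164, adjusted p = 0.00971). In all 6 genes the lowest of the KO MPS1i libraries was that of batch 3. RPL6 lay just outside the threshold (-0.64, adjusted p = 0.0105).

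With DMSO the smallest p-values among the members belonged to RPL7 (-0.58, SE 0.152, adjusted p = 0.0372), RPS18 (-0.58, adjusted p = 0.0538), RPL6 (-0.49, adjusted p = 0.0588) and RPL30 (-0.51, adjusted p = 0.0657). RPS18 was at 2254, 2344 and 2199 CPM in Cas9 DMSO and at 1921, 1515 and 1229 CPM in KO DMSO, which did not overlap. In all, 6 members were wholly lower, where 5.44% of all genes were, and 1 was wholly higher, where 6.65% of all genes were. RPS27L, a paralog of RPS27, had the smallest p among those with a positive difference (0.40, adjusted p = 0.236). Without the library whose CGAS level went against its label, RPL17 had it instead, at 0.70 (SE 0.172, adjusted p = 0.0127), and RPS27L was at 0.56 (adjusted p = 0.0508). RPL7 was then at -0.55 (adjusted p = 0.0417), RPS18 at -0.54 (adjusted p = 0.0589) and RPL30 at -0.44 (adjusted p = 0.103), and the median of the family was -0.194.

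The stalk, 5S and other members named by role did not pass the threshold. With MPS1i the KO minus Cas9 difference was -0.57 for RPLP0 (adjusted p = 0.0482), -0.18 for RPLP1 (adjusted p = 0.573) and -0.34 for RPLP2 (adjusted p = 0.158). It was -0.46 for RPL5 (adjusted p = 0.0742) and -0.35 for RPL11 (adjusted p = 0.155). RPL41, the shortest of the family's proteins, differed by -0.62 (adjusted p = 0.018, and 0.0049 without the library whose CGAS level went against its label), and RPS6 by -0.35 (adjusted p = 0.248). Among the X-linked members the difference was -0.10 for RPL10 (adjusted p = 0.766), -0.12 for RPS4X (adjusted p = 0.721) and -0.36 for RPL39 (adjusted p = 0.149). RPL22 differed by -0.42 (adjusted p = 0.0445), RPL3 by -0.50 (adjusted p = 0.0418), RPSA by -0.16 (adjusted p = 0.69) and RPS27A by -0.52 (adjusted p = 0.0561). RPL17, on chromosome 18, had the smallest p among members with a positive difference, 0.43 (adjusted p = 0.248).

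**Figure D4:**
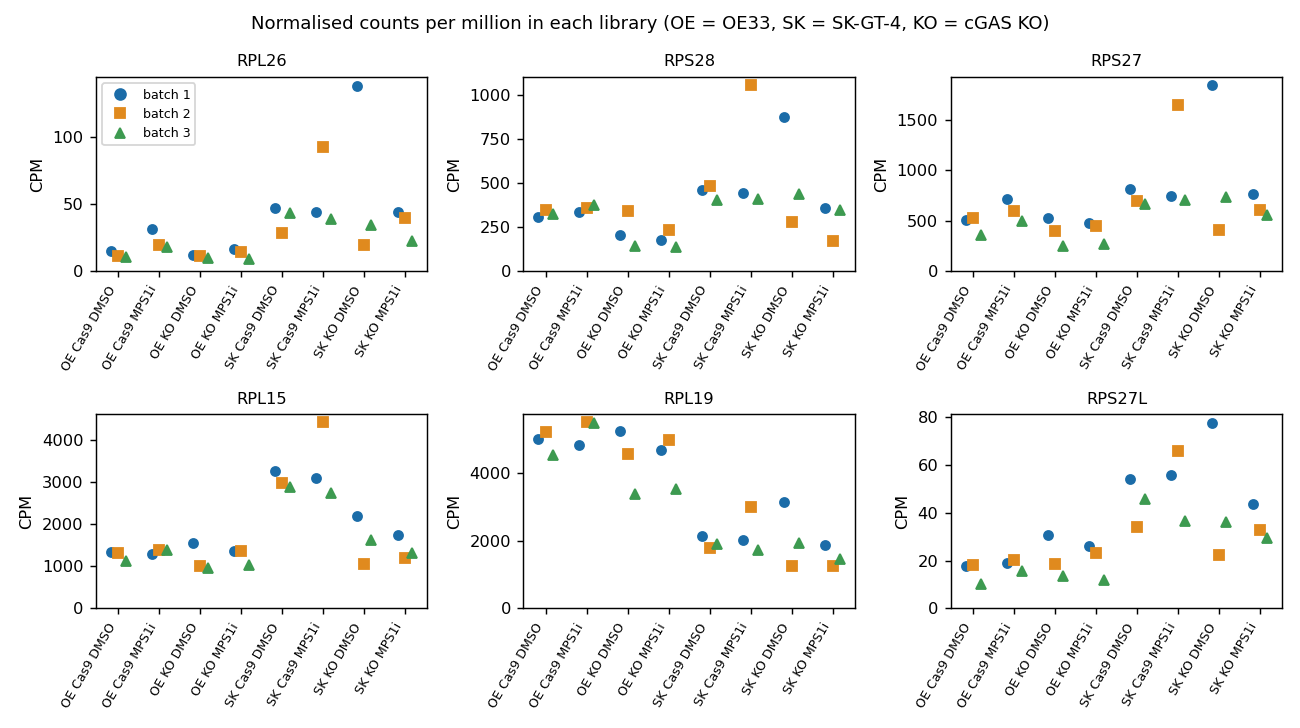
Normalised CPM (y axis, from 0) of RPL26, RPS28, RPS27, RPL15, RPL19 and RPS27L in every library, by group on the x axis and marked by batch. RPS28 lies lower in all 3 OE33 KO MPS1i libraries than in all 3 OE33 Cas9 MPS1i libraries, and RPL19 lies higher in OE33 than in SK-GT-4, while the 2 SK-GT-4 libraries that stood apart give the highest value for RPL26, RPS28, RPS27 and RPS27L.

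In SK-GT-4 the KO and Cas9 cells gave no called member with all libraries. With DMSO 0 of 79 members were called where 1.76% of all genes were, and the median of 0.274 joined batch medians of 1.18, -0.726 and -0.0321. With MPS1i 0 of 79 were called where 1.41% of all genes were, and the median was -0.845 with batch medians of -0.0199, -1.89 and -0.305. At an unadjusted p under 0.05, 1 member was counted with DMSO (17.5% of all genes) and 10 members with MPS1i were lower (12.7%, where 9.28% of all genes were lower). DESeq2 called 0 members with DMSO and 1 with MPS1i, with no share of all genes given beside them. With MPS1i 23 members were wholly lower in KO, where 11.5% of all genes were.

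Without the 2 libraries that stood apart, 6 members were called lower in SK-GT-4 KO cells with DMSO (7.59%, where 5.28% of all genes were called lower) and 4 with MPS1i, where 5.16% of all genes were. These shares were near those of all genes. The medians were then -0.334 with DMSO, with 8 of 79 above 0, and -0.189 with MPS1i. RPS12, RPL32, RPL15 and RPS24 were called under both treatments, and RPL31 and RPL12 with DMSO.

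RPL15, a large subunit protein encoded on chromosome 3, had the smallest p among the members under both treatments with every library kept. It was at 3263, 2986 and 2883 CPM in Cas9 DMSO and at 2201, 1049 and 1627 CPM in KO DMSO, so that the groups did not overlap, and it was the only member wholly lower with DMSO, where 10.9% of all genes were. With MPS1i it was at 3086, 4431 and 2745 CPM in Cas9 and at 1741, 1192 and 1313 CPM in KO. Its differences were -0.94 (SE 0.316, adjusted p = 0.132) with DMSO and -1.30 (SE 0.319, adjusted p = 0.0449) with MPS1i, and without the 2 libraries -1.12 (adjusted p = 3.43e-05) and -0.96 (adjusted p = 0.000306).

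RPL32, also on chromosome 3, was at 1949, 1809 and 1847 CPM in Cas9 DMSO and at 2369, 603.9 and 1048 CPM in KO DMSO, where the first KO value is from a library that stood apart. With MPS1i it was at 1810, 3872 and 1693 CPM in Cas9 and at 1087, 615.9 and 795.8 CPM in KO, a difference of -1.62 (SE 0.472, adjusted p = 0.0837). Without the 2 libraries it was -1.13 (adjusted p = 1.88e-05) with DMSO and -0.96 (adjusted p = 0.000193) with MPS1i. The KO libraries of both treatments then lay below all Cas9 libraries.

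RPS12, a small subunit protein, was at 2306, 1607 and 1627 CPM in Cas9 DMSO and at 4564, 533 and 807.6 CPM in KO DMSO, a spread that spans both sides of the control. With MPS1i it was at 2029, 5119 and 1538 CPM in Cas9 and at 1178, 511.5 and 636.1 CPM in KO (-2.04, SE 0.653, adjusted p = 0.111). Without the 2 libraries its difference was -1.25 (SE 0.215, adjusted p = 2.07e-06) with DMSO and -1.09 (adjusted p = 1.82e-05) with MPS1i. RPS24, another small subunit protein, was at 997.2, 2563 and 923.3 CPM in Cas9 MPS1i and at 657.6, 460.8 and 498.3 CPM in KO MPS1i, and without the 2 libraries its difference was -0.73 (adjusted p = 0.00426). Epithelial markers were higher in the same KO cells (above), and their part in these differences was not tested.

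Where a gene lies went with how it differed between KO and Cas9 cells. For each of 78 members the median log2 difference of the other genes within 10 Mb was taken from the same fit. The Pearson correlation of the member with its neighbours was 0.726 with DMSO and 0.748 with MPS1i for OE33, and for SK-GT-4 it was 0.602 and 0.53. Without the libraries in doubt it was 0.688 and 0.753 for OE33, and 0.66 and 0.712 for SK-GT-4. These are descriptions across genes that share libraries and, where they lie near each other, neighbours. In OE33 with MPS1i the 4 members of chromosome 8 (RPL7, RPL8, RPL30 and RPS20) had a median of -0.708 where the 721 other genes of that chromosome had -0.295. RPL17 differed by 0.434 and its neighbours by 0.484, and RPS19 by 0.14 and its neighbours by 0.383. Members of chromosome 19 (12 genes, median -0.0708) and chromosome 18 thus lay highest, and those of chromosomes 8 and 12 lowest (-0.708 and -0.595).

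The called genes differed in this respect. RPL26 (-0.838, neighbours 0.0336) and RPL35A (-0.766, neighbours 0.085) fell among neighbours near 0, while RPS28 (-1.03), RPS27 (-0.661), RPS18 (-0.756) and RPL7 (-0.727) had neighbours at -0.259, -0.232, -0.23 and -0.25. In SK-GT-4 with MPS1i the 4 members with the smallest p-values all had low neighbours, -0.921 for RPL32, -0.767 for RPL15, -0.609 for RPS12 and -0.432 for RPS24. Leaving out the 2 libraries that stood apart put these neighbours at -0.898, -0.742, -0.544 and -0.511. On chromosome 3 within 1 Mb of RPL15 the median of other genes was -1.51, and -1.37 without them. Copy number was not measured here, and its part in these values was not tested.

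**Figure D5:**
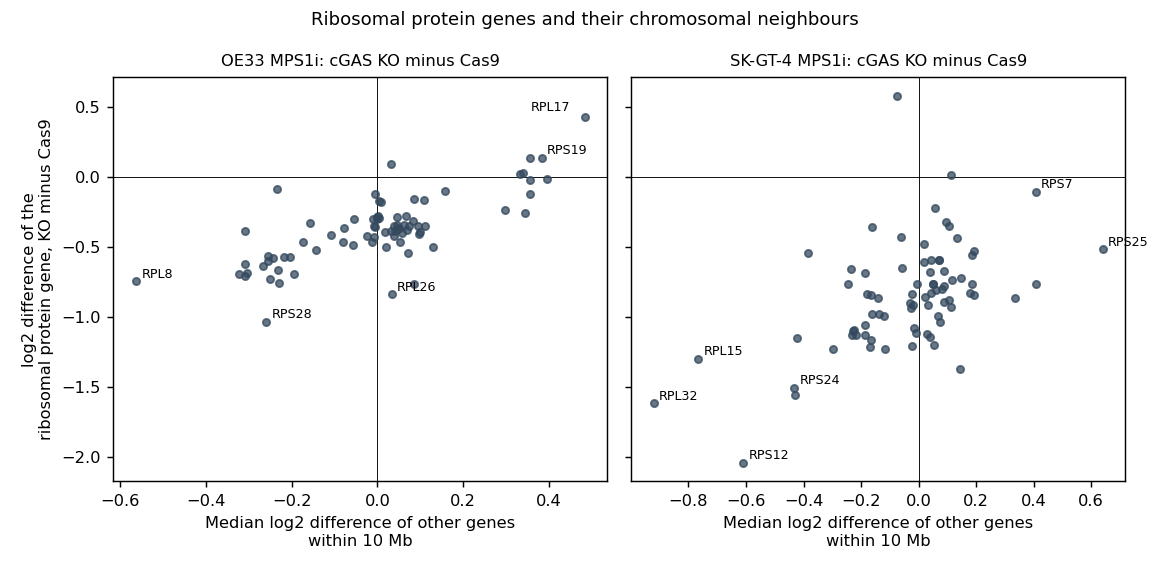
log2 difference between KO and Cas9 cells of each ribosomal protein gene (y axis) against the median log2 difference of other genes within 10 Mb (x axis), with MPS1i, in OE33 (left) and SK-GT-4 (right). Each point is a gene, and RPL3L, RPL10L and RPL39L are not drawn. In OE33 RPL8 and RPS28 lie low and RPL17 high on both or nearly both axes, while RPL26 lies low with neighbours near 0. In SK-GT-4 RPL32, RPL15 and RPS12 lie lowest or near it on both axes.

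Members moved together from library to library. Over the 12 libraries of a line, the first principal component of the 76 well counted members held 77.8% of their variance for OE33 and 92.3% for SK-GT-4. The median correlation of a member with the mean of the others was 0.924 for OE33 and 0.978 for SK-GT-4, and 45 and 69 of the 76 members were above 0.9. Without the 2 libraries that stood apart the SK-GT-4 values were 84.6%, 0.946 and 54 members, and without the library whose CGAS level went against its label the OE33 values were 80%, 0.933 and 50 members. These values share each library's depth and scaling. In OE33 the 4 members least like the rest, chosen after their values were seen, were RPL18 (0.0357), RPL17 (0.257), RPS19 (0.345) and RPL28 (0.404). RPL18, RPS19 and RPL28 lie on chromosome 19. Without that OE33 library they were at 0.0367, 0.247, 0.348 and 0.573. In SK-GT-4 the lowest was RPL15, at 0.655, but without the 2 libraries RPL15 was at 0.868 and RPS7 was lowest, at 0.363.

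In OE33 a test of both batch terms called 12 of 80 members (15%), where 15.3% of all genes were called, and 47 members (58.8%) had an unadjusted p under 0.05 where 36.8% of all genes did. Without the library whose CGAS level went against its label, 20 members were called (25%, where 19.4% of all genes were). Averaged over the groups, batch 3 lay lowest, with a median of -0.304 against batch 1 and 74 of 80 members below 0, and -0.303 against batch 2, where the medians over all genes were 0.0259 and 0.032. It was not lowest in every group, since in Cas9 MPS1i the summed share was 8.50% in batch 3 and 8.39% in batch 1. RPS27 (-0.70 for batch 3 minus batch 1, adjusted p = 0.000714), RPS27L (-0.82, adjusted p = 0.00194), RPL11 (-0.57, adjusted p = 0.0025) and RPL23 (-0.63, adjusted p = 0.00271) had the smallest p-values. RPL11 was at 400.2, 477.5 and 309.5 CPM in Cas9 DMSO of batches 1, 2 and 3 and at 456.8, 364.3 and 234.7 CPM in KO DMSO, so that batch 3 was lowest in both.

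In SK-GT-4 no member was called between batches (0 of 79, where 0.0263% of all genes were called), 3 had an unadjusted p under 0.05 where 12.5% of all genes did, and the medians against batch 1 were -0.415 for batch 2 and -0.621 for batch 3. Without the 2 libraries that stood apart 9 members were called (11.4%, where 13.1% of all genes were), among them RPS12 and RPS27L, and the median of batch 3 minus batch 1 was -0.169.

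Most members lay lower in OE33 than in SK-GT-4, with 59 of 80 below 0 among Cas9 DMSO libraries and 74 among KO DMSO libraries. With all libraries kept, the share of members called in either direction did not exceed that of all genes. Among KO DMSO libraries, however, the share of members called lower exceeded that of all genes called lower. Among Cas9 DMSO libraries 10 of 80 members were called (12.5%, where 24.4% of all 25181 genes were), 3 higher in OE33 (10.9% of all genes) and 7 lower (13.5% of all genes). The median was -0.428 against -0.144 over all genes, with batch medians of -0.535, -0.251 and -0.494. Among KO DMSO libraries 19 were called (23.8%, where 24% of all genes were), 2 higher (10.4% of all genes) and 17 lower (13.5% of all genes), with a median of -0.957 and batch medians of -1.57, 0.251 and -0.866. Without the 2 SK-GT-4 libraries that stood apart, 28 members were called among Cas9 DMSO libraries (5 higher and 23 lower, where 32.7% of all genes were called) and 15 among KO DMSO libraries (where 25.8% were), and the medians were -0.403 and -0.247. Neither of these 2 libraries is a Cas9 DMSO library, so the rise to 28 members came through the shared fit alone. The 23 called lower were a larger share than that of all genes called lower, which is given below with the mitochondrial ribosome. Among KO DMSO libraries the members called lower were then not a larger share. Without the libraries of batch 3, 1 member was called among Cas9 DMSO and 2 among KO DMSO libraries, and without those of batch 2, 52 were called among KO DMSO libraries. Shares of all genes are not given beside these counts from left-out batches.

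RPL39L, a paralog of RPL39 that is best known from the testis, was the member that differed most. It was at 35.95, 35.9 and 25.37 CPM in OE33 Cas9 DMSO and at 0 counts in all 12 SK-GT-4 libraries. Against a floor of 3 counts in each SK-GT-4 library, OE33 was at least 251-fold higher in Cas9 DMSO and at least 219-fold higher in KO DMSO, counting error only. Over all 12 OE33 libraries it averaged 31.9 ± 8.61 CPM (SD, n = 12). Its partner RPL39 differed by -0.06 log2 between the lines in Cas9 DMSO cells (adjusted p = 0.943).

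RPL19, a large subunit protein, was at 5029, 5237 and 4553 CPM in OE33 Cas9 DMSO and at 2133, 1800 and 1915 CPM in SK-GT-4 Cas9 DMSO, with no overlap. OE33 was higher by 1.34 log2 (SE 0.281, adjusted p = 0.000534), and by 1.07 in KO DMSO cells (adjusted p = 0.00446). Without the 2 SK-GT-4 libraries it was higher by 1.36 in both (adjusted p = 6.92e-06 and 7.98e-05). RPL19 lies 483.2 kb from ERBB2, the receptor gene amplified in some tumors of this kind, whose median was 1191 CPM in OE33 and 83.99 CPM in SK-GT-4. Other genes within 1 Mb of RPL19 had a median difference of 1.23, and those within 10 Mb of -0.134. RPL23, close by on chromosome 17, was at 2904, 3222 and 2185 CPM in OE33 and at 1205, 982.4 and 1154 CPM in SK-GT-4, a difference of 1.28 (adjusted p = 0.0128) that was 1.32 (adjusted p = 0.000145) without the 2 libraries that stood apart. Other genes within 1 Mb of it had a median of 1.46.

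RPL10, an X-linked protein at the subunit interface, was at 2218, 2388 and 2112 CPM in OE33 and at 1344, 1222 and 1154 CPM in SK-GT-4. OE33 was higher by 0.86 (SE 0.249, adjusted p = 0.00932), beside a median of 1.11 for its neighbours within 10 Mb, and by 0.87 (adjusted p = 0.000394) without the 2 libraries. The call for RPL10 was lost under several settings, with adjusted p between 0.0108 and 0.145 there. RPS4X and RPL39, also on the X chromosome, differed by 0.12 (adjusted p = 0.818) and -0.06.

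Members lower in OE33 were led by RPS27L, at 17.74, 18.1 and 10.34 CPM against 54.09, 34.13 and 45.73 CPM in SK-GT-4 (-1.57, SE 0.301, adjusted p = 0.000204). RPL15 (-1.28, SE 0.255, adjusted p = 0.000319) and RPL32 (-1.20, adjusted p = 0.00979) were also lower, each with neighbours within 10 Mb at -1.09. RPL26 was at 14.95, 10.97 and 10.44 CPM against 46.84, 28.63 and 43.24 CPM (-1.74, SE 0.416, adjusted p = 0.00191), with neighbours at -1.01. Leaving out the 2 SK-GT-4 libraries gave differences of -1.54 for RPS27L (adjusted p = 7.09e-06), -1.26 for RPL15 (adjusted p = 9.66e-06), -1.17 for RPL32 (adjusted p = 0.000147) and -1.69 for RPL26 (adjusted p = 1.29e-06). Across the 78 members the correlation with neighbours was 0.621 in Cas9 DMSO and 0.653 in KO DMSO, and 0.627 and 0.696 without them. In all, 49 members were wholly lower in OE33 Cas9 DMSO, where 28.1% of all genes were, and 11 wholly higher, where 22% were.

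Genes that work with the ribosomal proteins were read from lists drawn up with earlier results of these data known. Of 20 translation factors with TOP messengers that were tested, 2 were called lower in OE33 KO than in Cas9 cells with DMSO (0.465% of all genes were) and 6 with MPS1i (0.955% of all genes were), with medians of -0.304 and -0.364 and 19 of 20 below 0 with MPS1i. PABPC1, the poly(A) binding protein, was lower in the KO by 0.67 with DMSO (adjusted p = 0.00329), and EIF4B by 0.58 with DMSO (adjusted p = 0.00684) and by 0.75 with MPS1i (adjusted p = 0.000911). EIF3H (-0.76, adjusted p = 0.00208) and EIF3E (-0.73, adjusted p = 0.00265), subunits of an initiation factor, were lower in KO than in Cas9 cells with MPS1i. PABPC1, EIF3H and EIF3E lie on chromosome 8, whose genes outside the ribosomal protein family had medians of -0.209 with DMSO and -0.295 with MPS1i. Without the library whose CGAS level went against its label, 4 factors were called lower with DMSO and 8 with MPS1i (1.86% and 2.78% of all genes were), with medians of -0.235 and -0.38.

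Of 50 ribosome biogenesis genes, 0 were called with MPS1i in OE33, with medians of -0.184 in Cas9 and -0.125 in KO cells and 45 of 50 below 0 in each. The ribosomal protein medians in the same fits were 0.0939 and -0.0257. RRS1, needed to assemble the large subunit, had the smallest p in Cas9 cells (-0.45, adjusted p = 0.45). At an unadjusted p under 0.05, 10 of these genes were lower in Cas9 cells (3.43% of all genes were) and 3 in KO cells (3.13% of all genes were). Without the library whose CGAS level went against its label these were 10 and 4, with medians of -0.176 and -0.144.

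Of 13 genes that control ribosomal protein synthesis, MYC, the transcription factor that drives ribosome production, fell by 0.73 with DMSO (adjusted p = 0.0089) and by 0.71 with MPS1i (adjusted p = 0.00724) in OE33 KO cells, and it too lies on chromosome 8. Without the library in doubt it fell by 0.96 and 0.72 (adjusted p = 5.22e-05 and 0.000156). RPS6KB2, an S6 kinase, fell by 1.27 in SK-GT-4 KO cells with MPS1i (adjusted p = 0.00994), and by 1.19 without the 2 libraries that stood apart (adjusted p = 4.22e-08). With DMSO it fell by 1.28 without them (adjusted p = 1.2e-08). Of 10 genes of the checkpoint that answers failed ribosome assembly, CDKN1A, the cyclin-dependent kinase inhibitor p21, rose by 0.83 in OE33 KO cells with DMSO (adjusted p = 0.00355), by 1.00 without the library in doubt (adjusted p = 9.84e-05), and 0 were called with MPS1i against DMSO, where CDKN1A differed by 0.46 (adjusted p = 0.522) in OE33 Cas9 cells.

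The 78 genes of the mitochondrial ribosome, whose messengers are of ordinary abundance, took 0.402% to 1.10% of counts. They had medians of -0.059 and -0.0901 with MPS1i in OE33 Cas9 and KO cells and 0 calls in each, and without the library in doubt the median in KO cells was -0.173. The KO minus Cas9 difference under MPS1i had a median of -0.502 for SK-GT-4 with 0 called, and without the 2 libraries that stood apart a median of -0.0612 with 8 called lower (5.16% of all genes were) and 1 higher. Between cell lines 8 were called lower in OE33 among Cas9 DMSO and 17 among KO DMSO libraries, where 13.5% of all genes were in each. With the 2 libraries left out these were 21 and 8, where 17.2% and 14.2% of all genes were. Near relatives outside the naming rule were also read, and among 11 tested none was called with MPS1i in OE33. RPL22L1, a paralog of RPL22, differed by -0.40 in Cas9 cells (adjusted p = 0.627) and by -0.62 in KO cells (adjusted p = 0.444), whereas RPL22 differed by 0.13 (adjusted p = 0.877) in Cas9 cells. FAU and RACK1, which encode ribosomal proteins under other names, differed by 0.13 and 0.06 in OE33 Cas9 cells, near the family median of 0.0939.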

How the data were processed

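Poly(A)-selected RNA of 24 libraries was sequenced in paired reads. Per the labels, the authors used HISAT2 2.0.5 for alignment against GRCh38 and featureCounts 1.5.0 for counting, and deposited raw counts for 58735 genes with a gene length column. The annotation release, strand setting and treatment of multimapping reads were not given in the sources used here. Groups and batches came from the labels, and separate cultures are not stated, so p-values measure the spread between these libraries.

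From the deposited counts, genes were kept when they summed to 5 or more and were nonzero in 4 or more libraries. This left 80 members of 20426 genes in OE33, 79 of 22782 in SK-GT-4 and 80 of 25181 in both lines. The biological coefficient of variation was 14.97%, 33.98% and 28.74%. Differences were tested with edgeR 4.0.16 (quasi-likelihood F-test, TMM factors, a term per group and per batch) in R 4.3.3, with Benjamini-Hochberg adjustment over all genes tested and a threshold of 0.01. CPM values use TMM factors over the 24 libraries, and RPKM values the length column. Wilson intervals (95%) and floors of 3 counts per library cover counting error only. The code was tested on simulated data. A start site tract was read from RefSeq promoters (GRCh38.p14).

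The batch numbers, which the labels state, served as replicate block. Deviations of same-numbered libraries of a genotype correlated at a median of 0.361 in OE33 (0.187 to 0.55, 6 pairs) and 0.258 in SK-GT-4 (0.0869 to 0.532, 6 pairs). Alternatives were DESeq2 1.42.0, ComBat-seq from sva 3.50.0, other size factors and filters, no block, a block per genotype, and single libraries or batches left out.

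The members and all gene lists were chosen with earlier results of these data known. Genes named were CGAS, up to 4 members with the smallest p in each direction of each comparison, the stalk, 5S, ubiquitin fusion and X-linked members, paralogs with their partners, RPL22, RPL41, RPS6, RPSA, the 5 highest and 5 lowest levels, members on chromosomes 3, 8 and 18, and up to 3 genes per list and comparison. Other members named were chosen after their values were seen. Results of a few single genes that this rule would name are not reported here.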

Additional observations from a re-analysis of the deposited data

How the results depend on the processing

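Of 188 counts of called members under other settings, 148 were within 1.5 times the reported count, including counts that were 0 under both settings. Of 188 medians, 183 moved by less than 1 SD of the batch values. That is a loose measure where batches differ. In SK-GT-4 Cas9 MPS1i minus DMSO the batch medians were -0.124, 1.25 and -0.0777. A change of its median from 0.505 to -0.227, without both libraries that stood apart, therefore counted as within 1 SD. Of 507 values of single members, 443 kept their direction and their side of the threshold, 37 no longer passed it, 27 newly passed it and 0 turned direction. In the order OE33 KO minus Cas9 with DMSO, the same with MPS1i, OE33 batches, and cell lines among Cas9 DMSO and among KO DMSO libraries, the reported counts are 0, 6, 12, 10 and 19. With no filter on low counts they were 7, 26, 44, 18 and 41, and RPL26 was called in OE33 Cas9 MPS1i minus DMSO (1 member). With total counts in place of TMM factors, 35 members were called between OE33 batches and 18 between lines among Cas9 DMSO libraries, where the median was -0.601. With edgeR's own filter, 2 were called in OE33 KO minus Cas9 with MPS1i and 7 between OE33 batches. DESeq2 with the batch as a replicate block called 1, 17 and 21 in the first 3 comparisons, 32 between lines among KO DMSO libraries, 1 in SK-GT-4 KO minus Cas9 with MPS1i and 1 (RPL26) in OE33 Cas9 MPS1i minus DMSO. A replicate block per genotype and ComBat-seq before DESeq2 also called that 1 gene. Without the replicate block 0 members were called in OE33 KO minus Cas9 with MPS1i and 6 between lines among Cas9 DMSO libraries. Removing both SK-GT-4 libraries that stood apart, chosen after seeing the data, gave 6 and 4 called members in SK-GT-4 KO minus Cas9 with DMSO and with MPS1i, 9 between SK-GT-4 batches, 28 between lines among Cas9 DMSO libraries and an interaction median of -0.154. The MANE Select length, also chosen after seeing the data, gave a median level of 1008 RPKM. Shares of all genes are not set beside the counts in this section. The counts therefore do not show whether the family shifted more than other genes. The cause of these shifts was not tested.

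When single libraries or whole batches were left out, called members ran from 0 to 1 in OE33 KO minus Cas9 with DMSO, from 0 to 15 with MPS1i, at 20 between OE33 batches, from 1 to 18 between lines among Cas9 DMSO libraries, from 2 to 52 among KO DMSO libraries, and were 0 in all other comparisons. The medians for MPS1i minus DMSO ran from 0.00435 to 0.18 in OE33 Cas9, from -0.129 to 0.0427 in OE33 KO, from -0.306 to 0.729 in SK-GT-4 Cas9 and from -0.962 to 0.000542 in SK-GT-4 KO. Those of the interactions ran from 0.0576 to 0.282 in OE33, from 0.328 to 1.59 in SK-GT-4 and from -0.618 to 0.253 between lines. Those of KO minus Cas9 ran from -0.408 to -0.109 and from -0.531 to -0.151 in OE33 with DMSO and MPS1i, and from -0.368 to 0.68 and from -1.2 to -0.125 in SK-GT-4. Batch medians were -0.308 in OE33 and ran from -0.582 to -0.101 in SK-GT-4, and cell line medians from -0.511 to -0.354 and from -1.32 to -0.21. The 3 libraries per group and a coefficient of variation of 33.98% limit what could be called in SK-GT-4. In both lines the comparisons of MPS1i with DMSO called almost no gene of any kind with all libraries kept. Their lack of called members therefore says little about the family.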
